A study of Mus musculus with 11 samples.

Results

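A set of 10 genes that leukocytes use to steer the small GTPase Rac and the actin skeleton was followed from arterial endothelium to adult hematopoietic stem cells (HSCs). They are Rac2, Rhoh, Dock2, Vav1, Arhgdib, Was, Hcls1, Coro1a, Lcp1 and Fyb. They were taken by symbol from an RNA-seq table of 37820 gene rows, in which all 10 were found, and all 10 were among the 14708 genes with an FPKM (fragments scaled to transcript length and to the mapped fragments of the library) of at least 1 in at least 2 libraries. The study sorted 5 mouse populations and asked how the transcriptome changes from each stage of HSC ontogeny to the next.

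Endothelial cells (Endo, 2 libraries) were CD31+ Runx1:GFP- Kit- CD45- CD41- cells from the major arteries of embryonic day 10.5 embryos. Hemogenic endothelium (HE, 2 libraries) came from the same arteries and day and was sorted apart from Endo by the reporter, was Runx1:GFP+, with low or no Kit, and also lacked CD45 and CD41. Both carried a reporter at the Runx1 locus, Runx1tm4Dow. Pre-HSCs (3 libraries) were CD31+ CD144+ ESAM+ Kit+ Ly6a:GFP+ cells of embryos with a Ly6a:GFP transgene, whose GFP is driven by Ly6a (Sca1) regulatory sequences. The labels give embryonic day 10.5 for pre-HSCs, while the study's supplementary methods give a day later. That gate holds no term against CD45 or macrophage antigens. Fetal liver HSCs (FL HSC, 2 libraries) were Lin- Sca1+ Kit+ CD150+ CD48- cells of embryonic day 14.5 fetuses from B6C3F1/J by B6129SF1/J matings. Bone marrow HSCs (BM HSC, 2 libraries) were Lin- Sca1+ Kit+ CD150+ CD48- cells of mice 6 to 8 weeks old, to which the methods add CD135- and a table of the study CD34- in place of CD48-. Embryos and mice were pooled for sorting. The labels name the strain B6129SF1 for all 11 libraries, the methods name different crosses, and stage, tissue, gate and cross change together and cannot be told apart.

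Rac proteins switch between a GTP-bound form, which drives actin assembly, and a GDP-bound form. Exchange factors load them with GTP, GDP dissociation inhibitors hold them in the cytosol, and the proteins of the WASP and WAVE families pass the signal to the Arp2/3 complex, which builds branched actin. Blood cells use members of these families that most other tissues express little or not at all. In mice, loss of Rac2 together with its relative Rac1 releases HSCs from the marrow, and the pathway is known for adhesion, migration and homing of blood cells.

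Cdh5, the gene of VE-cadherin and a marker of endothelium in general, was listed at 303 and 383 FPKM in Endo, 292 and 301 in HE, 454, 489 and 430 in the pre-HSC libraries, and 11.2 and 4.78 in the FL HSC pair and 0.0257 and 0.0124 in the BM HSC pair. Ptprc, which encodes CD45, was listed at 0.0221 to 0.0969 FPKM in Endo and HE libraries, at 7.97 to 13.2 in pre-HSCs, at 13.9 and 28.8 in the FL HSC pair and at 48.1 and 44.0 in the BM HSC pair. Macrophage markers were present in the pre-HSC libraries. The sum over 8 of them (Csf1r, Emr1, Cd68, Lyz2, C1qa, C1qb, Mrc1 and Fcgr1) was 598, 226 and 1225 FPKM in pre-HSC replicates 1, 2 and 3. The FL HSC pair had 381 and 110, the BM HSC pair 108 and 131, and the Endo and HE libraries 4.66 to 11.4. In BM HSCs Lyz2 gave 101 and 127 FPKM of that sum, and Csf1r, the receptor that defines the macrophage lineage, gave 0.136 and 0.0674. Markers of T and NK cells summed to at most 3.54 FPKM over 7 genes. Those of B cells summed to at most 22.6 over 5 genes, a value that Cd79b alone gave. Megakaryocyte markers, a sum of 6 genes, were at 9.97 to 31 FPKM in Endo and HE. They were at 156, 105 and 275 in pre-HSC replicates 1, 2 and 3, of which Pf4 alone gave 129, 68.6 and 245. The FL HSC pair had 188 and 77.8, and the BM HSC pair 809 and 787. The sum of 6 erythroid markers was 432 to 619 FPKM in Endo and HE, 56.9 to 89.8 in pre-HSCs, 289 and 152 in the FL HSC pair and 21.2 and 33.8 in the BM HSC pair. Granulocyte markers summed over 6 genes gave 563 and 468 FPKM in FL HSCs, against 30.2 to 44.6 in pre-HSCs, and 104 and 97.2 in BM HSCs. Mural and mesenchymal markers gave 963 and 955 in HE, against 182 and 327 in Endo. They gave 330, 160 and 207 in pre-HSC replicates 1, 2 and 3. The FL HSC pair had 2.72 and 3.15, and the BM HSC pair 2.85 and 4.32. The part of these other cells or transcripts in the values below was not tested. A sum of 4 hepatocyte markers ranged from 1.51 to 30.0 FPKM. Depth in reads is unknown from FPKM. The lowest values did fall in steps of whole reads, and from these the depth of the other Endo and HE libraries was 0.798 to 1.03 times that of Endo replicate 1, where 56 to 141 genes shared the most frequent ratio. In the other populations at most 36 genes did, and no depth is given.

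**Figure D1:**
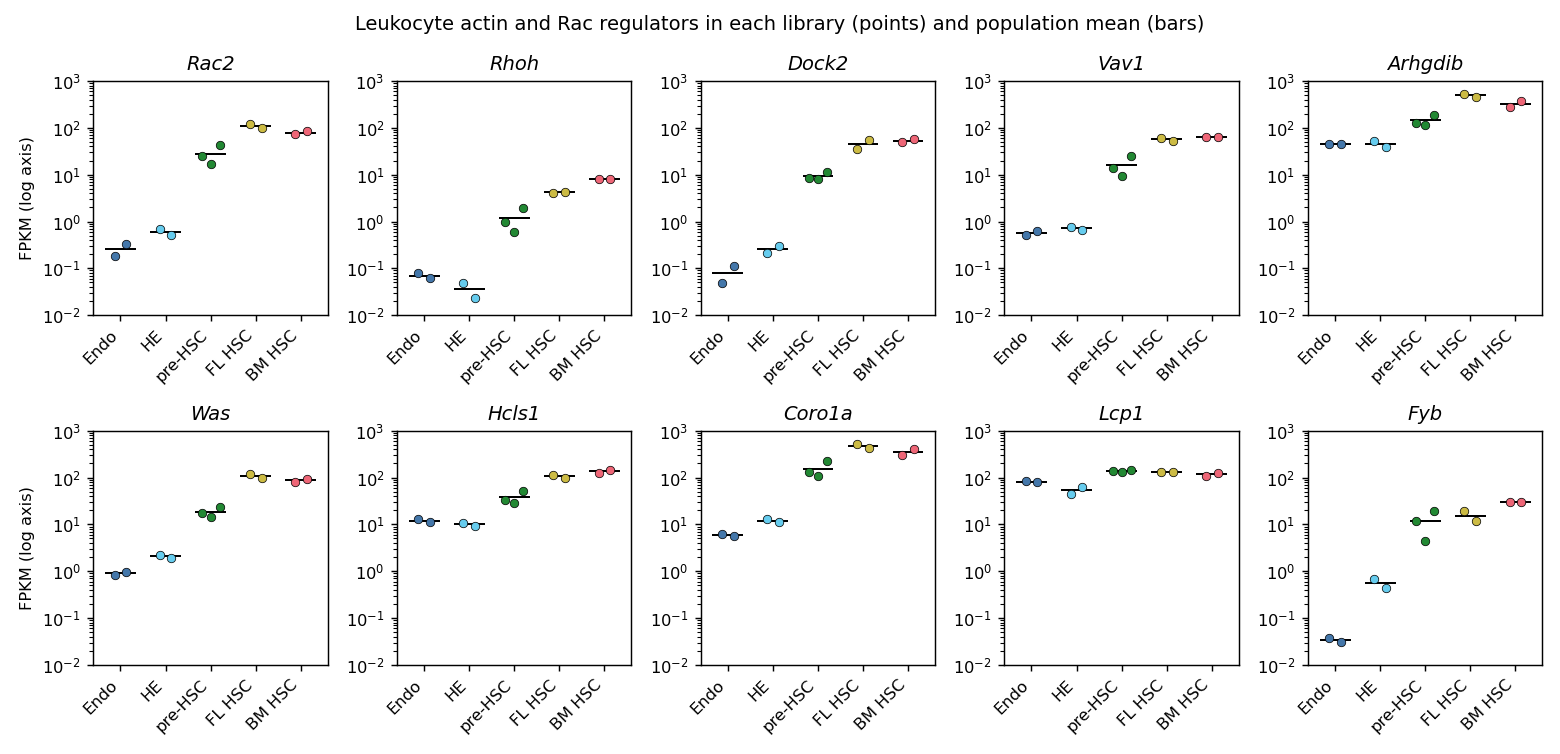
FPKM on a log axis (vertical) of the 10 genes in each of 11 libraries (points), with the mean of each population (bars), ordered by stage. Rac2, Rhoh, Dock2, Vav1 and Fyb lie below 1 FPKM in the Endo and HE libraries, while Lcp1 and Arhgdib start at 81.4 FPKM or more and 44.4 FPKM or more in Endo.

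The entry into the pre-HSC stage was the transition in which all 10 genes were higher. In a limma fit of log2(FPKM + 1) over all 11 libraries, a gene was called where the adjusted p of the F test over the 5 populations was under 0.01, the adjusted p of the pair (Benjamini-Hochberg, over all 14708 genes) was under 0.05, and the change was at least 2-fold. In pre-HSC against HE, 10 of 10 were called higher, beside 6.98% of all genes tested called higher and 4.34% called lower. The next step, FL HSC against pre-HSC, had 8 of 10 called higher, beside 11.1% higher and 13.9% lower among all genes. Lcp1 and Fyb were the exceptions. In HE against Endo and in BM HSC against FL HSC no member was called. The backgrounds there were 0.0544% higher and 0.0748% lower for HE against Endo, and 5.99% higher and 4.07% lower for BM HSC against FL HSC. At an unadjusted p under 0.05, limma gave 3 of the 10 in HE against Endo (8.27% of all genes) and 2 in BM HSC against FL HSC (36.6% of all genes). The median log2 fold change over the 10 genes was 0.17, 2.75, 1.74 and -0.02 over the 4 transitions in order, and over all genes tested 0.03, 0.09, 0.11 and 0. Of the 10, Rac2, Rhoh, Dock2, Vav1 and Fyb were under 1 FPKM in all 4 Endo and HE libraries and so entered the fit through the later stages, and the counts are given as a description. Fewer cells with a transcript and less of it per cell cannot be told apart in these pooled cells.

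**Figure D2:**
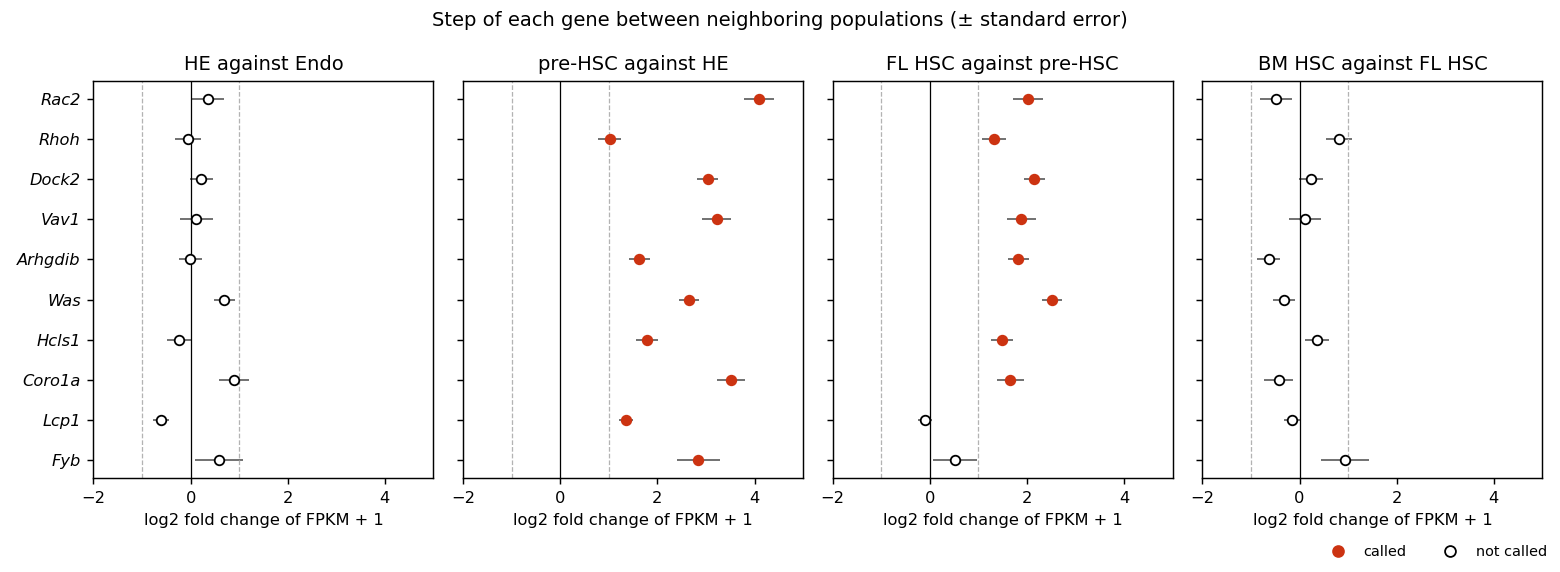
Log2 fold change of FPKM + 1 (horizontal, ± standard error of the limma fit) of each gene in the 4 transitions, later stage minus earlier stage, with filled points for called genes and dashed lines at 2-fold. All 10 points are filled in pre-HSC against HE, 8 in FL HSC against pre-HSC and none in the outer panels.

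Among the GTPases themselves, Rac2 made the largest step of the 10. Rac2 (ENSMUSG00000033220, chr15:78389599-78403213 in mm9) is the Rac of blood cells. It was listed at 0.180 and 0.336 FPKM in Endo and 0.697 and 0.508 in HE. The pre-HSC libraries gave 24.7, 17.1 and 43.0 FPKM, the FL HSC pair 120 and 101, and the BM HSC pair 73.8 and 84.0. The populations did not overlap at any neighboring pair. Mean FPKM was 46.9-fold higher in pre-HSCs (28.3 ± 13.3, SD, n = 3) than in HE (0.603 ± 0.133, n = 2), or 4.10 ± 0.30 (SE) as log2 fold change (limma adjusted p = 6.5e-05). FL HSCs were another 3.91-fold above pre-HSCs (2.02 ± 0.30 on the log2 scale, adjusted p = 0.000427). BM HSCs stood at 0.714 of the FL HSC mean, which did not pass (adjusted p = 0.34).

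Rhoh, an atypical small GTPase that does not hydrolyze GTP and is known as an adaptor in lymphocyte receptor signaling, had the lowest level of the set in every library but those of Endo, where Fyb was lower. Rhoh (ENSMUSG00000029204, chr5:66254808-66287939) was listed at 0.0780 and 0.0615 FPKM in Endo and 0.0487 and 0.0236 in HE. In the pre-HSC libraries it reached 0.960, 0.601 and 1.93 FPKM, with 4.14 and 4.27 in the FL HSC pair and 8.05 and 8.15 in the BM HSC pair. Each stage from pre-HSC on was clear of the one before it. Because the fit adds 1 to FPKM, the 32.2-fold ratio of the pre-HSC to the HE mean gave a log2 fold change of 1.02 ± 0.25 (limma adjusted p = 0.0148). The call sat at the 2-fold limit and was lost without pre-HSC replicate 3 (0.77), also without HE replicate 1 (1.03, adjusted p = 0.0898) or HE replicate 2 (0.998, adjusted p = 0.0609), and with pre-HSC replicate 2 as the sole pre-HSC library (0.63, adjusted p = 0.16). The step to FL HSCs was 1.31 ± 0.25 (adjusted p = 0.00162). Rhoh was 1.93-fold higher in BM HSCs than in FL HSCs by the means, and at 0.81 ± 0.27 with an adjusted p of 0.0569 it was not called.

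Both exchange factors for Rac were called in the same transitions as Rac2. Dock2, which activates Rac downstream of chemokine receptors and is required for lymphocyte migration, has the identifier ENSMUSG00000020143 and lies at chr11:34126815-34597394. It was listed at 0.0485 and 0.110 FPKM in Endo and 0.213 and 0.307 in HE. FPKM was 8.69, 8.08 and 11.6 in the pre-HSC libraries, 36.2 and 55.7 in the FL HSC pair, and 48.8 and 57.9 in the BM HSC pair. The pre-HSC libraries were closer to each other for Dock2 than for Rac2, and FL HSC and BM HSC libraries overlapped. Log2 fold changes were 3.04 ± 0.22 in pre-HSC against HE and 2.15 ± 0.22 in FL HSC against pre-HSC (limma adjusted p = 6.1e-05 and 3.5e-05). Vav1 (ENSMUSG00000034116, chr17:57418523-57468659) is the exchange factor that tyrosine kinases of antigen and cytokine receptors switch on. Its FPKM was 0.525 and 0.619 in Endo and 0.765 and 0.656 in HE. The pre-HSC libraries gave 13.9, 9.52 and 24.7 FPKM, the FL HSC pair 62.0 and 53.5, and the BM HSC pair 62.3 and 62.4. Vav1 thus stood 22.6-fold higher in pre-HSCs than in HE and 3.60-fold higher in FL HSCs than in pre-HSCs by the means, with log2 fold changes of 3.22 ± 0.30 and 1.88 ± 0.30. The difference of BM HSCs from FL HSCs was 0.11 ± 0.33 on the log2 scale for Vav1 and 0.24 ± 0.24 for Dock2, neither past the test.

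Arhgdib, which encodes the GDP dissociation inhibitor of hematopoietic cells (LyGDI), was abundant before any hematopoietic stage. It lies at chr6:136872044-136890420 (ENSMUSG00000030220) and was listed at 45.9 and 44.4 FPKM in Endo and 52.3 and 38.6 in HE. In the pre-HSC libraries it reached 128, 117 and 186 FPKM, with 541 and 459 in the FL HSC pair and 279 and 370 in the BM HSC pair. Endo and HE overlapped. Pre-HSCs were 3.16-fold above HE and FL HSCs 3.48-fold above pre-HSCs, with log2 fold changes of 1.63 ± 0.22 and 1.82 ± 0.22 (limma adjusted p = 0.00104 and 0.000102). BM HSC libraries were both below the FL HSC ones, at a log2 fold change of -0.63 ± 0.24 and an adjusted p of 0.0849.

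The 4 genes that act on actin filaments split into different starting levels. Was, whose protein WASP turns on the Arp2/3 complex and is lost in Wiskott-Aldrich syndrome, lies on the X chromosome (ENSMUSG00000031165, chrX:7658579-7667624). It was listed at 0.828 and 0.961 FPKM in Endo and 2.24 and 1.91 in HE. FPKM was 17.7, 14.3 and 23.9 in the pre-HSC libraries, 121 and 97.0 in the FL HSC pair, and 80.8 and 92.9 in the BM HSC pair. No neighboring populations overlapped. Was had the largest step of the set into FL HSCs, at 2.51 ± 0.20 on the log2 scale (adjusted p = 7.5e-06 in limma), next to 2.65 ± 0.20 into pre-HSCs. It was already 2.32-fold higher in HE than in Endo by the means, and that difference had an unadjusted p of 0.0113 and an adjusted p of 0.357.

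Coro1a (ENSMUSG00000030707, chr7:133843287-133851301) encodes coronin 1A, which binds filamentous actin and is needed for T cell survival and migration. Its FPKM was 6.30 and 5.69 in Endo and 12.9 and 11.1 in HE. The pre-HSC libraries gave 128, 108 and 231 FPKM, the FL HSC pair 514 and 425, and the BM HSC pair 299 and 400. Coro1a too was higher in both HE libraries than in both Endo libraries, 2.0-fold by the means, at an adjusted p of 0.414 in limma. So were Fyb (16.2-fold), Dock2 (3.28-fold), Rac2 (2.33-fold) and Vav1 (1.24-fold), all under 1 FPKM in both populations. Rhoh, Hcls1 and Lcp1 were lower in both HE libraries than in both Endo libraries. None of these differences was called. How many of all genes tested have libraries that lie apart in this way was not counted, here or at later stages. Such orders are therefore a description and no result about the members. The step of Coro1a into pre-HSCs was 3.52 ± 0.28 and that into FL HSCs 1.66 ± 0.28 (limma adjusted p = 8.2e-05 and 0.000886). Hcls1 (ENSMUSG00000022831, chr16:36935069-36963298) encodes HS1, the cortactin relative of leukocytes that steadies branched actin. It was listed at 13.1 and 11 FPKM in Endo and 10.8 and 9.29 in HE. In the pre-HSC libraries it reached 33.2, 28.7 and 52.6 FPKM, with 112 and 99.9 in the FL HSC pair and 125 and 147 in the BM HSC pair. Hcls1 was thus measurable in endothelium and was 3.79-fold higher in pre-HSCs than in HE (1.78 ± 0.23, adjusted p = 0.000769) and 2.77-fold higher in FL HSCs than in pre-HSCs (1.49 ± 0.23, adjusted p = 0.00045).

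Lcp1, the gene of L-plastin, which bundles actin filaments, differed most from the other 9. Lcp1 (ENSMUSG00000021998, chr14:75530908-75630649) was listed at 83.4 and 81.4 FPKM in Endo and 44.8 and 63.9 in HE. FPKM was 140, 128 and 148 in the pre-HSC libraries, 129 and 130 in the FL HSC pair, and 110 and 122 in the BM HSC pair. Both HE libraries were below both Endo libraries (-0.61 ± 0.16 on the log2 scale, unadjusted p = 0.00407, adjusted p = 0.281). Pre-HSCs were 2.56-fold above HE, at 1.36 ± 0.15 and an adjusted p of 0.000398 in limma, and their libraries overlapped those of FL HSCs. Fyb (ENSMUSG00000022148, chr15:6529871-6613321) encodes the adaptor ADAP, which links immune receptors to integrin adhesion. It was listed at 0.0377 and 0.0313 FPKM in Endo and 0.685 and 0.433 in HE. The pre-HSC libraries gave 11.6, 4.41 and 19.4 FPKM, the FL HSC pair 19.1 and 11.7, and the BM HSC pair 29.7 and 29.5. The pre-HSC libraries spread over a 4.39-fold range and overlapped those of FL HSCs. Fyb was called in pre-HSC against HE (2.84 ± 0.45, adjusted p = 0.00228) and not in FL HSC against pre-HSC (0.52 ± 0.45, adjusted p = 0.366), but with pre-HSC replicate 2 as the sole pre-HSC library the step into FL HSCs was 1.56 and called (adjusted p = 0.00826).

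The highest population mean fell in BM HSCs for 5 of the 10 genes (Rhoh, Dock2, Vav1, Hcls1 and Fyb), in FL HSCs for 4 (Rac2, Arhgdib, Was and Coro1a) and in pre-HSCs for Lcp1. No member was called in BM HSC against FL HSC, where a call also needs a 2-fold change. Lcp1 was not called in FL HSC against pre-HSC either. Whether the step into FL HSCs was smaller than the step into pre-HSCs was tested as the difference of both steps in the same fit, with no fold limit. It was lower for Rac2 (-2.07 ± 0.51, adjusted p = 0.0112), Coro1a (-1.86 ± 0.47, 0.0129), Lcp1 (-1.45 ± 0.25, 0.00184) and Fyb (-2.33 ± 0.75, 0.0374), and higher for none. Among all genes tested, 18.1% were lower and 16.8% higher by this limma test. For the other 6 genes the difference lay between -1.34 (Vav1) and 0.30 (Rhoh) and did not pass. With pre-HSC replicate 2 as the sole pre-HSC library, 0 of the 10 passed in limma (lowest adjusted p = 0.1), with 2 at an unadjusted p under 0.05, beside 7.04% of all genes called lower and 4.36% higher in that fit. The call of Fyb was lost on leaving out Endo replicate 1 or 2, HE replicate 1 or 2, pre-HSC replicate 1 or 3, FL HSC replicate 2 or BM HSC replicate 2 (adjusted p from 0.0503 to 0.125), while Dock2 passed without FL HSC replicate 2 (-1.19, adjusted p = 0.0284) and Vav1 without pre-HSC replicate 2 (-1.94, adjusted p = 0.0103). Both also passed with equal totals and with a smaller pseudocount, so that 6 genes were lower under each of these settings. With a pseudocount of 0.1 the difference was -2.47 for Dock2 (adjusted p = 0.00359) and -2.26 for Vav1 (adjusted p = 0.0108).

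The 3 pre-HSC libraries differed in order. All 10 genes were lowest in replicate 2 and highest in replicate 3, an order that 22% of the genes tested showed. The ratio of replicate 3 to replicate 2 ranged from 1.16 for Lcp1 to 4.39 for Fyb. The macrophage markers had the same order in 8 of 8, with ratios from 3.06 to 7.30. Csf1r, for one, was listed at 85.8, 26.3 and 164 FPKM in replicates 1, 2 and 3. Of 6 hematopoietic and HSC markers 1 had the order of the members (Ptprc), while Hlf, which marks HSCs, was at 7.45, 10.1 and 5.95 FPKM and Runx1 at 12.6, 13.1 and 16.1. The order was found in 0 of 6 endothelial, 1 of 6 megakaryocyte and 1 of 6 erythroid markers. The 2 FL HSC libraries also differed in Csf1r (33.2 and 4.79 FPKM), and 7 of the 10 members were higher in replicate 1, beside 47.4% of all genes tested. In BM HSCs Csf1r was at or below 0.136 FPKM and Lyz2 at 101 and 127 FPKM. With pre-HSC replicate 2 as the sole pre-HSC library, an alternative chosen after seeing the data, 9 of 10 were still called higher than in HE, all but Rhoh, beside 3.75% of all genes called higher and 3.02% lower in that fit. In FL HSCs 9 of 10 were called higher, beside 10% of all genes called higher and 11.2% lower. Replicate 2 was itself not free of macrophage transcripts. Its 8 macrophage markers summed to 226 FPKM, against 7.49 and 11.4 in the HE libraries. Csf1r was at 26.3 FPKM in replicate 2, against 1.46 and 1.04 in HE. The fit with replicate 2 alone leaves that signal in place and cannot separate it from the step of the members. What macrophage transcripts add to the pre-HSC and FL HSC values was not tested.

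**Figure D3:**
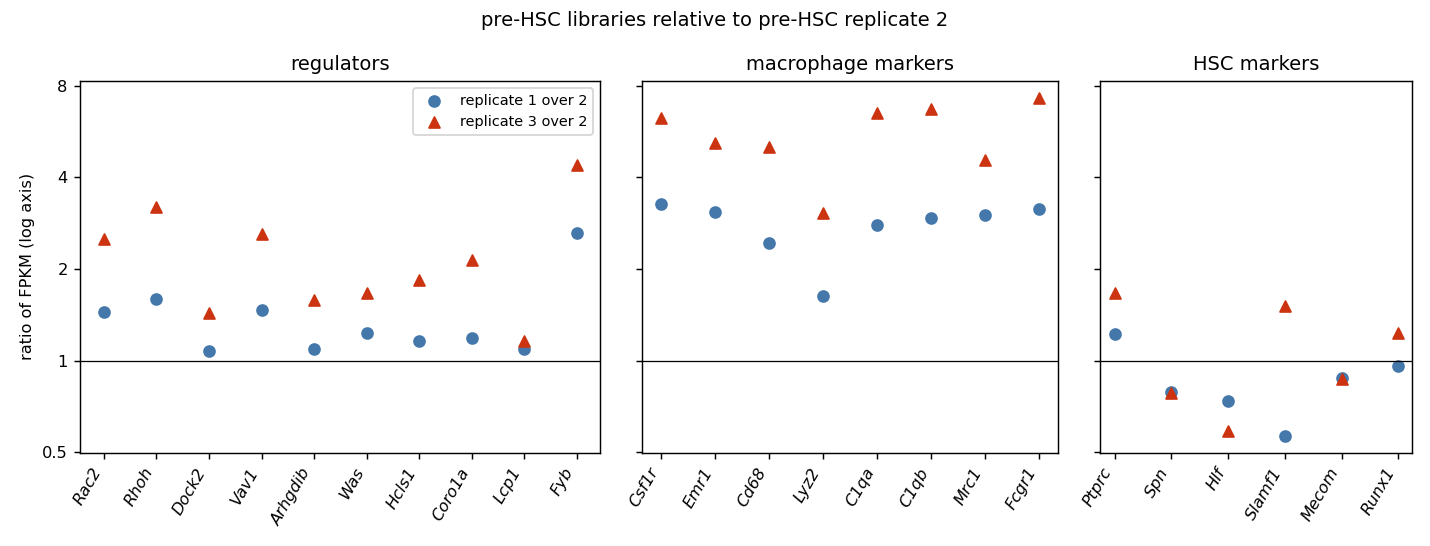
FPKM of pre-HSC replicate 1 (circles) and replicate 3 (triangles) relative to pre-HSC replicate 2, on a log axis, for the 10 genes, 8 macrophage markers and 6 hematopoietic and HSC markers. The 10 genes reach 4.39 (Fyb) and the macrophage markers 7.30 (Fcgr1), while Ptprc lies above 1 and Hlf below it.

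Most of the 10 genes have close relatives that other tissues use, and 14 such paralogs were tested. Of all genes tested, 6.98% were called higher and 4.34% lower in pre-HSC against HE. The shares were 11.1% and 13.9% in FL HSC against pre-HSC, and 5.99% and 4.07% in BM HSC against FL HSC. In pre-HSC against HE, 0 of 14 were called higher and 2 lower (Rac3 at -1.40 and Arhgdig at -1.08), while limma without adjustment had 3 above and 3 below at p under 0.05, which 40.9% of all genes reached there. In FL HSC against pre-HSC, 1 was higher (Arhgdig, 2.36) and 4 lower (Rac3 at -1.42, Dock1 at -1.25, Cttn at -1.07 and Pls3 at -3.26). In BM HSC against FL HSC, Cttn (1.01), Pls1 (2.24) and Pls3 (1.0) were higher and Arhgdig lower (-2.85). In HE against Endo 0 were called, with 1 at an unadjusted p under 0.05. Under quantile normalization Pls3 lost its call in BM HSC against FL HSC (0.69), and under both scalings Coro1c was called lower in FL HSC against pre-HSC (-1.07 and -1.05). Vav2, Vav3, Wasl, Coro1b, Coro1c, Arhgdia, Rac1 and Dock5 were called in no transition of the fit, all values being limma log2 fold changes.

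Rac1, the Rac of most cell types, was listed at 157 and 146 FPKM in Endo and 135 and 143 in HE. In the pre-HSC libraries it reached 205, 202 and 228 FPKM, with 137 and 135 in the FL HSC pair and 103 and 121 in the BM HSC pair. It therefore exceeded Rac2 in each library. FPKM is scaled by transcript length, so that levels of relatives may be set side by side, and Rac2 made up 11.3 ± 4.0% of the summed FPKM of Rac1, Rac2 and Rac3 in pre-HSCs, 44.6 ± 2.86% at the FL HSC and 41.3 ± 0.551% at the BM HSC stage, against 0.402 ± 0.101% in HE and 0.166 ± 0.0782% in Endo (SD, n = 3 in pre-HSCs and 2 elsewhere). Rac3 was listed at 0.441 and 0 FPKM in BM HSCs, against 11.1 and 10.7 in HE.

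In the other 7 families the leukocyte gene held the larger share at the FL HSC stage. Dock2 made up 80.4 ± 2.08% of the summed FPKM of Dock1, Dock2 and Dock5 in FL HSCs, against 28.8 ± 7.32% in pre-HSCs and 1.58 ± 0.116% in HE. Vav1 held 74.6 ± 4.89% of its family in FL HSCs, against 43.9 ± 9.72% in pre-HSCs and 4.79 ± 0.221% in HE, while Vav2 and Vav3 were listed at 5.17 to 14.3 FPKM in each library from HE on. Was took 91.9 ± 0.120% of the sum with Wasl, the broadly expressed N-WASP gene, in FL HSCs, against 50.5 ± 13.5% in pre-HSCs and 14.9 ± 4.66% in HE. Hcls1 took 79.7 ± 1.55% of the sum with Cttn, the cortactin gene, in FL HSCs, against 39.2 ± 6.72% in pre-HSCs. Coro1a took 71.0 ± 1.05% in FL HSCs, against 39.2 ± 7.48% in pre-HSCs, with Coro1b at 116 to 166 FPKM in all 11 libraries. Arhgdib reached 57.2 ± 2.29% in FL HSCs, against 27.5 ± 2.57% in pre-HSCs, with Arhgdia at 370 ± 78.7 FPKM in FL HSCs, against 373 ± 45.3 in pre-HSCs. These shares are descriptions with no test.

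L-plastin was the exception in its starting point. Lcp1 already held 69.5 ± 0.999% of the summed FPKM of the plastins in Endo and 61.5 ± 2.15% in HE, beside 97.8 ± 0.939% in FL HSCs. Pls3, the plastin of non-blood tissues, fell to 1.51 and 3.47 FPKM in FL HSCs, against 34.1, 34.1 and 25.6 in pre-HSCs.

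**Figure D4:**
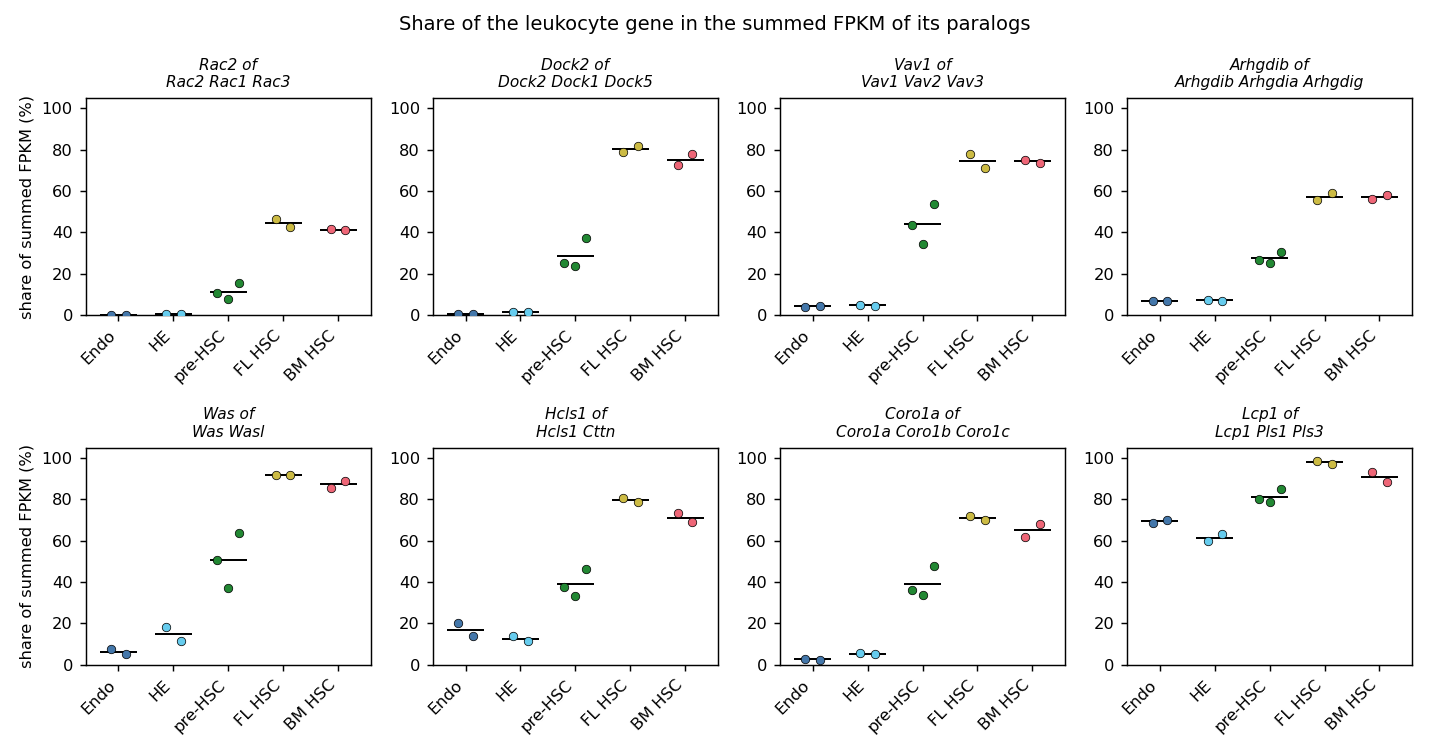
Share of each leukocyte gene in the summed FPKM of its paralog family (vertical, percent) in each of 11 libraries (points) with population means (bars). Pre-HSC libraries lie between the early and the late stages in 8 of 8 families, for example at 7.74 to 15.6% for Rac2 and 78.7 to 85.1% for Lcp1.

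Other parts of the pathway were described from lists of known genes. Beside each count stand the shares of all genes tested, 6.98% called higher and 4.34% lower in pre-HSC against HE. These shares were 11.1% and 13.9% in FL HSC against pre-HSC, and 5.99% and 4.07% in BM HSC against FL HSC. Of 12 GTPase activating proteins and exchange factors of leukocytes, 7 were called higher and 0 lower in pre-HSC against HE, and 8 higher and 0 lower in FL HSC against pre-HSC. Arhgap15, a Rac-directed GAP, averaged 29.8 ± 11.8 FPKM in FL HSCs, against 1.72 ± 1.70 in pre-HSCs (log2 fold change 3.62 ± 0.42 in limma). Arhgap4, Arhgap9 and Arhgap30 rose into pre-HSCs by 3.08, 2.76 and 2.70 on the log2 scale. Of 10 regulators of such GTPases in endothelium, 1 was called higher in pre-HSC against HE (Plekhg1, a call lost under quantile normalization at 0.91, adjusted p = 0.0566) and 9 were called lower in FL HSC against pre-HSC. The 4 largest falls were those of Arhgef15 (-4.02), Rasip1 (-3.75), Dock6 (-3.36) and Arhgap29 (-3.29), and Rasip1, needed for vessel lumen formation in mice, stood at 8.19 ± 1.77 FPKM in FL HSCs, against 122 ± 10.5 in pre-HSCs. The pre-HSC libraries thus held both sets of transcripts. Arhgap4, Arhgap9, Arhgap15 and Arhgap30 were each lowest in pre-HSC replicate 2 and highest in replicate 3, as the macrophage markers were. Arhgef1, Dock10, Dock11 and Prex1 did not have that order. What macrophage transcripts add to the pre-HSC values of these and the following lists was not tested.

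Of 12 other GTPases related to Rac tested, 0 were called higher and 1 lower (Rnd2) in pre-HSC against HE, and 1 higher (Rhof) and 5 lower in FL HSC against pre-HSC. Rhoc fell to 5.8 ± 1.25 FPKM in FL HSCs, against 158 ± 6.23 in pre-HSCs (-4.56 on the log2 scale), and Rhoj, an endothelial GTPase, to 1.85 ± 0.520, against 55.7 ± 2.94 (-4.32). Rhob and Rhod fell by 3.55 and 2.92 at the same step. Among 13 binding partners of the members tested, 3 were higher in pre-HSC against HE and 4 in FL HSC against pre-HSC, with none lower. Elmo1, the partner of Dock2, averaged 35.9 ± 1.55 FPKM in pre-HSCs, against 13 ± 0.427 in HE. Lcp2, the gene of SLP-76, to which ADAP and Vav1 bind, averaged 11.3 ± 6.58 FPKM in pre-HSCs, against 0.967 ± 0.352 in HE (2.51 ± 0.37). Grb2 and Wipf2 rose into FL HSCs by 1.52 and 1.28, and the call of Wipf2 was lost under both scalings. Of 13 receptor-proximal kinases and adaptors tested, 5 rose into pre-HSCs and none fell, and 4 rose and 2 fell (Lck and Plcg1) into FL HSCs. The kinase gene Btk was the one with the largest change of these, at 72.9 ± 9.04 FPKM in FL HSCs, against 9.48 ± 3.53 in pre-HSCs (2.87 ± 0.24). Fermt3, the kindlin that activates integrins in blood cells, rose by 2.73 into pre-HSCs, Pik3cd by 2.25 into FL HSCs and Lat by 2.04 into BM HSCs. Of 6 PAK and IQGAP effectors tested, Iqgap2 was the one called, and it was higher at each of the last 3 transitions, though not into FL HSCs with equal totals (0.93).

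The subunits of the WAVE complex, which Rac binds to start branched actin, differed in direction between relatives. The 9 genes of the Arp2/3 complex that it acts on gave 0 calls in the 4 transitions. At an unadjusted p under 0.05 limma had 5 of them higher and 1 lower in pre-HSC against HE, where 40.9% of all genes reached that p. With quantile normalization Actr2 (1.03) and Arpc1b (1.17) were called higher there, as they were with equal totals (1.07 and 1.15). Nckap1l, the hematopoietic form (HEM1), was listed at 0.145 and 0.218 FPKM in Endo and 0.20 and 0.743 in HE. FPKM was 18.0, 9.42 and 28.2 in the pre-HSC libraries, 46.5 and 48.3 in the FL HSC pair, and 56.1 and 62.8 in the BM HSC pair. Its relative Nckap1 was listed at 2.89 and 6.17 FPKM in FL HSCs, against 43.2, 48.5 and 33.2 in pre-HSCs. Nckap1l rose by 3.63 into pre-HSCs and by 1.43 into FL HSCs, and Nckap1 fell by 3.0 into FL HSCs. Cyfip2 was 22.7 and 25.0 FPKM in FL HSCs, against 3.05, 3.50 and 2.61 in pre-HSCs, a log2 fold change of 2.62 ± 0.19, while Cyfip1 fell by 1.60. Unlike the 10 genes and Nckap1l, Cyfip2 was not called in pre-HSC against HE (0.40 ± 0.19, limma adjusted p = 0.143). Wasf1 fell by 2.40 into FL HSCs, and Wasf2 rose by 1.1, a call lost under quantile normalization (0.88) and equal totals (0.84).

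**Figure D5:**
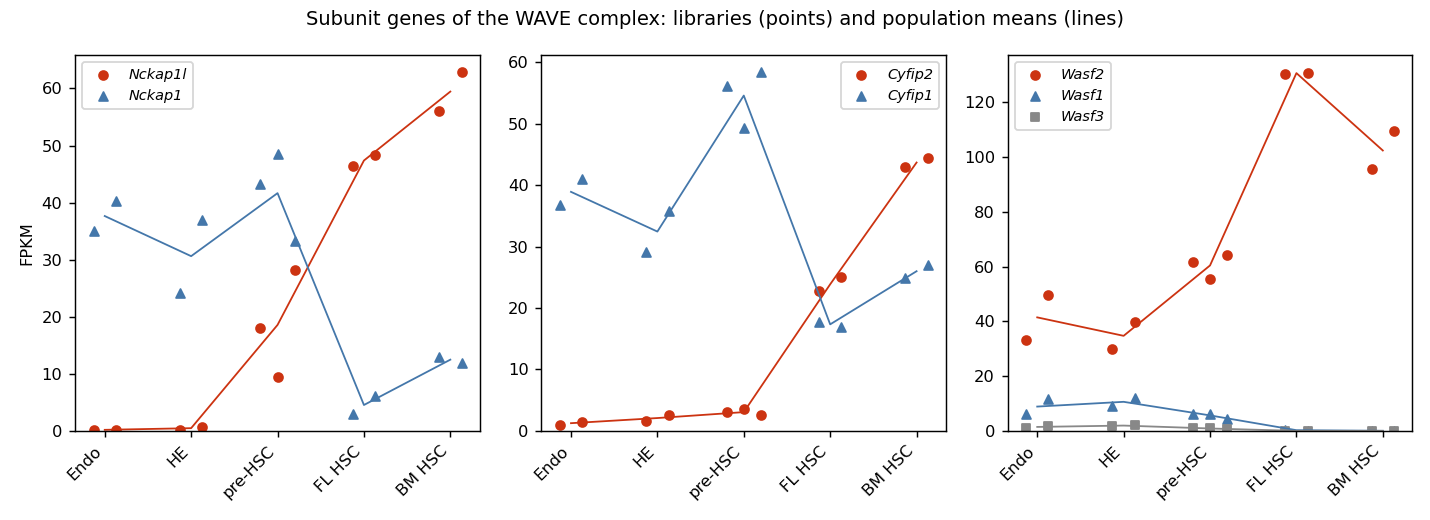
FPKM (vertical) of paired subunit genes of the WAVE complex in each of 11 libraries (points) with lines through the population means. Nckap1l and Cyfip2 exceed their relatives from FL HSC on, and Nckap1 and Cyfip1 do so in Endo, HE and pre-HSC.

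The members were compared with one another and with all genes tested by their pattern across the 11 libraries, which share populations and are not independent, so the values are a description. Each member's log2(FPKM + 1) had a Pearson r of 0.935 to 0.999 with the mean of the other 9, with Vav1 at the top, except Lcp1 at 0.768. The genes outside the set with the highest r to the mean of the 10 were Sash3 (0.998), Apbb1ip (0.995), Fmnl1 (0.995), Myo1g (0.995), Sp110 (0.994), Laptm5 (0.994), Nckap1l (0.994), Arhgap30 (0.994), Adcy7 (0.993) and Pik3cg (0.993). Of these, Sash3 is an adaptor of lymphocytes, Apbb1ip binds Ena/VASP proteins, Pik3cg encodes a PI3-kinase of leukocytes, Fmnl1 is a formin of blood cells and Myo1g a myosin of the leukocyte membrane. By Spearman rank correlation none of these was among the 10 nearest.

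Promoter sequence of the members was read from RefSeq (GRCm38.p6) in windows of 250 bases before to 50 bases after the start, which 9 of the 10 genes had, in 13 windows. The letters searched on both strands were GAGGAA, a form bound by PU.1 and other ETS factors, and TGNGGT for RUNX. AGATAA, which the erythroid factor Gata1 and its relatives bind, was also searched. So were GGGCGG for SP and KLF factors, GGGAGGG for MAZ, and TATAAA, which the general factor TBP binds. Other forms of these sites were not searched. GAGGAA was in 5 of the 9 genes (5 of 13 windows), beside 28.3% of all 32851 windows. TGNGGT was in 5 of the 9 (6 of 13 windows), beside 45.8% of all windows. AGATAA was in 2 of 13 windows (11.2% of all), GGGCGG in 5 (35.7%), GGGAGGG in 3 (22%) and TATAAA in 2 (13.6%). All 10 members were called higher in pre-HSC against HE, among them Rhoh, Hcls1 and Lcp1, whose windows held neither GAGGAA nor TGNGGT. Shown are the 120 bases before the start of the 4 genes with a single window and GAGGAA or TGNGGT in that stretch. ETS, RUNX and Gata matches on either strand are in capitals.
Dock2 (chr11:34783906-34784025, minus strand): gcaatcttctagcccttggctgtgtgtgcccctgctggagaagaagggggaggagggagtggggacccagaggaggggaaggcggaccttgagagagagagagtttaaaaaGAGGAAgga
Vav1 (chr17:57278980-57279099, plus strand): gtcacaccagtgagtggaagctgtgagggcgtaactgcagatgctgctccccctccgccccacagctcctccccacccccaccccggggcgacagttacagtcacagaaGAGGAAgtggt
Was (chrX:8090492-8090611, minus strand): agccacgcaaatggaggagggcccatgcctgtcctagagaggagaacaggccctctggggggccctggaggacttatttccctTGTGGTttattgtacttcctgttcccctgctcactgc
Fyb (chr15:6579727-6579846, plus strand): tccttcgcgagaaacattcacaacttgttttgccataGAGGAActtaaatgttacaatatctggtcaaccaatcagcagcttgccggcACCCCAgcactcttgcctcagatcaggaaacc
In Dock2 and Vav1 the GAGGAA match began at positions -9 and -11, counted from the annotated start as 0. A match is a run of letters and no evidence of binding.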

How the data were processed

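RNA was sequenced in 11 libraries of 5 sorted populations. The authors aligned reads to mm9, and the submitters' processing notes name TopHat, Cufflinks, featureCounts, Subread and edgeR without versions. The deposited values are FPKM per Ensembl gene as the authors made them. Absolute read depth is unknown, and 3 symbols of the lists were not analysed here. Symbols and mm9 positions came from GENCODE M1, which matched 37038 of 37820 genes.

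Log2(FPKM + 1) was fitted with limma 3.58.1 (R 4.3.3, a mean-variance trend in eBayes) with population as the factor, over 14708 genes, as described with the results. Populations of 2 libraries take their spread from all. p-values measure the spread between these libraries. The fit was also run on simulated data, in which no gene near the floor of FPKM was changed. That run cannot speak for members under 1 FPKM in Endo and HE. All members and paralogs, and up to 4 called genes per other list by size of change, were named. Members and lists were chosen with earlier results of these data known. Alternatives were the pseudocount, filter, scaling, thresholds, a replicate block, subsets and leaving out each library.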

Additional observations from a re-analysis of the deposited data

How the results depend on the processing

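The members' counts kept their size within 1.5 times under 21 alternatives: 9 to 10 called higher in pre-HSC against HE, 8 to 9 in FL HSC against pre-HSC, and 0 in HE against Endo and in BM HSC against FL HSC. The 4 genes with a smaller step into FL HSCs became 0 with pre-HSC replicate 2 as the sole pre-HSC library, an alternative chosen after seeing the data, were 3 to 5 on leaving out single libraries, and were 6 with either smaller pseudocount and with equal totals. Where 1 library of a population is left, it is assumed to vary like the other populations. Each alternative kept the 2-fold limit on the 4 transitions. In BM HSC against FL HSC, Rhoh stayed under that limit, at 0.53 to 0.93. Its limma adjusted p was 0.0212 without pre-HSC replicate 3. Arhgdib had 0.046 in the same fit, at -0.63. The replicate block leaves pre-HSC replicate 3 out of the comparison, since its number occurs once. The members' counts with the block stayed within 1.5 times of those reported. It took the calls of Rhoh in pre-HSC against HE (0.77) and of Fyb in the difference of steps (-1.46, limma adjusted p = 0.0798). Over all genes in HE against Endo it gave 4 higher and 7 lower. No source used here says that a number marks a shared sort. Endo and HE were separated from embryos of the same kind by the reporter, and whether same-numbered Endo and HE libraries share embryos is not given. A table of the study lists the same number of dissected embryos for both. Same-numbered libraries had correlations of their deviations of 0.115 for Endo with HE, and from -0.155 to 0.156 over all 20 pairs, 8 of them over 0.1. Where both populations have 2 libraries, replicates 1 and 2 give the same correlation by construction, so these pairs are not independent. The main fit treated the replicate number as no pairing. Fyb lost that call also without the filter, with the compared libraries alone and without any one of 8 single libraries.

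Values that changed sign were not called in either fit, and the cause was not tested. For HE against Endo, quantile normalization gave -0.0277 for Vav1 and 0.00104 for Arhgdib, equal totals gave 0.11 for Arhgdib, and leaving out single libraries gave -0.22 to 0.21 for Arhgdib. Lcp1 was 0.0123 in FL HSC against pre-HSC with pre-HSC replicate 2 alone, and 0.12 in BM HSC against FL HSC under quantile normalization. Leaving out single libraries gave -0.00405 to 0.95 for Fyb in FL HSC against pre-HSC and -0.0663 to 0.54 for Dock2 in BM HSC against FL HSC. The difference of steps turned for Rhoh with a pseudocount of 0.1 (-1.17), for Arhgdib under quantile normalization (-0.13) and equal totals (-0.25), for Was with the block (0.23) and pre-HSC replicate 2 alone (0.51), and for Hcls1 with the block (0.21) and replicate 2 alone (0.42). Its leave-one-out ranges were -0.089 to 0.78 for Rhoh, -0.0726 to 0.59 for Arhgdib, -0.47 to 0.23 for Was and -0.64 to 0.21 for Hcls1.

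Counts over all genes moved more. Called higher and lower were 0 to 17 and 0 to 19 for HE against Endo (8 and 11 as reported), 540 to 1384 and 361 to 832 for pre-HSC against HE (1026 and 639), 1093 to 1848 and 1617 to 2466 for FL HSC against pre-HSC (1637 and 2040), 599 to 1181 and 363 to 850 for BM HSC against FL HSC (881 and 599), and 628 to 3205 and 1014 to 3308 for the difference of steps (2471 and 2658). Scaling to equal totals moved the median log2 fold change of all genes to 0.12, 0.23, -0.10 and 0.09 over the 4 transitions.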
